A study of Mus musculus with 12 samples.

Results

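*T*, *Mixl1*, *Gsc*, *Lhx1* and *Evx1* encode transcription factors of the primitive streak. These 5 genes were taken from the 46517 genes of the count files by matching Ensembl identifiers to mouse symbols, and all 5 were among the 15673 genes that passed the filter on low counts. In WT cells all 5 were higher at day 3 of differentiation than at day 0, between 14.3-fold for *Evx1* and 50.7-fold for *Mixl1* by mean CPM. A single WT library raised the day 0 means of all 5 and so made these ratios smaller. In *Meteor* KO cells at day 3 all 5 were between 43.1-fold (*Gsc*) and 120-fold (*Lhx1*) below WT. At day 0, where the genes were low, *T* and *Lhx1* were lower in KO than in WT, and 1 WT library set much of the size of that difference.

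The study sequenced polyadenylated RNA from 12 samples in 4 groups of 3 replicates, WT day 0, WT day 3, KO day 0 and KO day 3. All were mouse EomesEGFP reporter embryonic stem cells (ESCs), labelled as C57BL/6 background, in which an EGFP cassette sits at the transcription start of the endogenous *Eomes* gene, so both genotypes carry that insertion. KO cells lack *Meteor*, an enhancer upstream of *Eomes* that is itself transcribed into a long noncoding RNA (lncRNA), removed with the CRISPR-Cas9 nickase. ESCs were grown on mouse embryonic fibroblast feeders, and day 3 samples were embryoid bodies, aggregates made in hanging drops of a serum medium for cardiac differentiation. KO clones were picked one by one, and the labels do not say whether the KO replicates came from 1 clone or from separate cultures, so p-values measure the spread between these samples only.

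The primitive streak is the site where cells of the epiblast leave the epithelium during gastrulation and become mesoderm and definitive endoderm. Wnt3, Nodal and BMP4 signals turn on its transcription factors, and *Eomes* and *T*, both T-box factors, act early in this step. T (brachyury) is needed for posterior mesoderm and notochord. Evx1, a homeodomain factor, marks the posterior streak, where BMP signalling is high. Mixl1 is a paired-like homeodomain factor of the streak that is needed for normal axial mesendoderm and endoderm. Gsc (goosecoid) and Lhx1, a LIM homeodomain factor, belong to the anterior streak and the organizer, where Nodal signalling is high.

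The genes lie on 5 chromosomes of GRCm38, and all are annotated as protein-coding in GENCODE M21. *T* (ENSMUSG00000062327) spans chr17:8434423-8442496 on the plus strand. *Evx1* (ENSMUSG00000005503) spans chr6:52313498-52318378 on the plus strand, and its antisense lncRNA *Evx1os* overlaps it over 1335 bp. *Mixl1* (ENSMUSG00000026497) spans chr1:180693043-180697034 on the minus strand. *Gsc* (ENSMUSG00000021095) spans chr12:104471209-104473330 and *Lhx1* (ENSMUSG00000018698) spans chr11:84518284-84525535, both on the minus strand. No word of 100 bases in the annotated transcripts of the 5 genes occurs in a transcript of another gene, on either strand. The exons of *Evx1* and *Evx1os* share 73 bases on opposite strands, which is shorter than such a word.

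Because all 5 genes were higher at day 3 in WT and lower in KO at day 3, their promoters were searched for shared letters. The 250 bases before the RefSeq start (GRCm38.p6) were at hand for 4 of the 5 genes, *T*, *Evx1*, *Gsc* and *Lhx1*. They are printed 5′ to 3′ on the strand of the gene and only as far as they lie before the GENCODE start too, with motif matches in capitals. The windows are chr17:8434173-8434422 (plus strand) for *T*, chr6:52313248-52313497 (plus) for *Evx1*, chr12:104473331-104473486 (minus) for *Gsc* and chr11:84525536-84525784 (minus) for *Lhx1*.
T: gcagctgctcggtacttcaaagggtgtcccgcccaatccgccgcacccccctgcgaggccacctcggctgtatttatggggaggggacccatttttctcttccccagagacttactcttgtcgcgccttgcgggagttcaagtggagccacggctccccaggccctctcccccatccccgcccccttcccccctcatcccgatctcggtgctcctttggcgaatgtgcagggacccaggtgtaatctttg
Evx1: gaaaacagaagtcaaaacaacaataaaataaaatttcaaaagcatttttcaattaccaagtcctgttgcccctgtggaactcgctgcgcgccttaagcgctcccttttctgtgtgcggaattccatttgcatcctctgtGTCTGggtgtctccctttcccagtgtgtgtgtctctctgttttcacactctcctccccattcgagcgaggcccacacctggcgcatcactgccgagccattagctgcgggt
Gsc: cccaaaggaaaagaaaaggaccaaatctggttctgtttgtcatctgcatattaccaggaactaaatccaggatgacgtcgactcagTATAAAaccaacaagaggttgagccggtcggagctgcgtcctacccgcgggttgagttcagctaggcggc
Lhx1: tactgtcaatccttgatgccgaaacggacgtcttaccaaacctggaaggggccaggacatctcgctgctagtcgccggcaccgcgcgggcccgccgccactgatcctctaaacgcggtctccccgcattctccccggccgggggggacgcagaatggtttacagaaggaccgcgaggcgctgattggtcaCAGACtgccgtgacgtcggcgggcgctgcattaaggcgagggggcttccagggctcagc

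The motifs were searched on both strands over the whole 250 bases, and none of them was in all 4 windows. CAGAC, the core letters bound by SMAD proteins, occurred once before *Lhx1*, 60 to 56 bases before the RefSeq start, and once on the opposite strand before *Evx1*, at 111 to 107 bases, while 42.2% of all 32851 mouse promoter windows of this length hold it. TATAAA, the letters of a TATA box, occurred before *Gsc* at 164 to 159 bases before the RefSeq start, and 12.4% of all windows hold it. The window of *Gsc* runs 94 bases past the GENCODE start, where its printed letters end. Its motif search and CpG ratio include those 94 bases. No match was found for the TCF/LEF letters CTTTGAT (in 3.2% of all windows), the FOXH1 letters AATCCACA (0.7%), the T-box letters AGGTGTGA (1.1%), the bicoid-type homeodomain letters TAATCC (6.3%) or the Antp-type letters TAATTA (4.8%). CpG pairs were depleted least before *Gsc* and *Lhx1*, with observed over expected ratios of 1.06 and 0.99, against 0.68 for *Evx1*, 0.59 for *T* and a median of 0.37 over all windows. A match describes these letters and not a bound site, and a missing match says nothing about the factor.

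Gene counts summed to 17455927 to 23910943 per library (median 19651103). CPM here is the count divided by the library's TMM-scaled total in units of 1000000 counts, so 1 CPM stands for about 19.7 reads. The labels were checked first. *Platr11*, an annotated transcript of the deleted locus, had 0.513 to 6.12 CPM in the 6 WT libraries and at most 0.0551 CPM in the 6 KO libraries, and a neighbouring transcript, ENSMUSG00000103968, had no count in any KO library against 1.35 to 5.84 CPM in WT. The KO libraries also lacked *Upf3b*, which encodes a factor of nonsense-mediated decay, with at most 0.661 CPM against 45.5 to 55.9 CPM in WT, so a difference between genotypes cannot be told apart from that loss. Of 12 pluripotency markers, summed CPM was 3881 to 5397 in the 6 day 0 libraries and 696.3 to 1321 in the 6 day 3 libraries, and all 12 were detected in every group. Summed fibroblast (feeder) markers ranged from 109.6 to 459.8 CPM at day 0 and from 45.9 to 137.4 CPM at day 3. Among day 3 libraries WT replicate 3 stood apart, with 672.2 CPM of 12 extraembryonic endoderm markers against 117.3 to 228.9 CPM in the other 5. Values of the 5 genes that change with it, and those of the other named genes whose WT mean came mostly from it, are given with and without it. In these bulk samples fewer streak cells and less RNA per cell cannot be told apart.

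WT cells were compared between the days to give the normal course of the 5 genes. All 5 were higher at day 3, by the quasi-likelihood test of edgeR, with p-values adjusted over all genes, whereas 30.7% of the 15673 tested genes were called higher. *T* had 4.64, 6.42 and 77.4 CPM in WT replicates 1, 2 and 3 at day 0 and 692.5, 613 and 269.5 CPM at day 3. The day 3 values all lay above the day 0 values, although replicate 3 narrowed the gap from both sides. The means were 29.5 ± 41.5 and 525 ± 225 CPM (SD, n = 3), a 17.8-fold difference with a log2 fold change of 4.79 (SE 1.10, adjusted p = 0.00442 in edgeR). *Evx1* had 1.2, 1.57 and 5.44 CPM at day 0 and 41.6, 40.4 and 35.7 CPM at day 3. Its 3 day 3 values were close to each other, at 39.3 ± 3.11 CPM (SD, n = 3), and the log2 fold change was 4.06 (SE 0.55, adjusted p = 0.000205 in edgeR).

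*Mixl1* had 0.983, 0.992 and 6.24 CPM at day 0 and 191, 185 and 39.7 CPM at day 3 in WT. The groups did not overlap, and the mean rose 50.7-fold, with a log2 fold change of 5.70 (SE 0.85, adjusted p = 0.000342 in edgeR). *Gsc* was the gene with the fewest reads at day 0, with 2, 10 and 31 counts or 0.109, 0.522 and 1.64 CPM, and had 35.5, 29.5 and 10.9 CPM at day 3. Its log2 fold change was 4.97 (SE 0.79, adjusted p = 0.000529 in edgeR). *Lhx1* had 0.655, 0.835 and 13.9 CPM at day 0 and 304.3, 199.5 and 224.5 CPM at day 3. Replicate 3 was again highest at day 0 but within the range of the others at day 3, and the log2 fold change of 6.13 (SE 0.75, adjusted p = 0.000112 in edgeR) was the largest of the 5. By mean CPM the rise of *Lhx1* was 47.3-fold, below that of *Mixl1*. The median log2 fold change of the 5 genes was 4.97, against 0.07 over all tested genes. The sizes depended on single libraries. Over the fits that each left out 1 library, the log2 fold change was 3.62 to 6.71 for *T* and 3.56 to 4.73 for *Evx1*. It was 5.03 to 7.25 for *Mixl1*, 4.13 to 6.47 for *Gsc* and 5.34 to 8.29 for *Lhx1*.

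**Figure D1:**
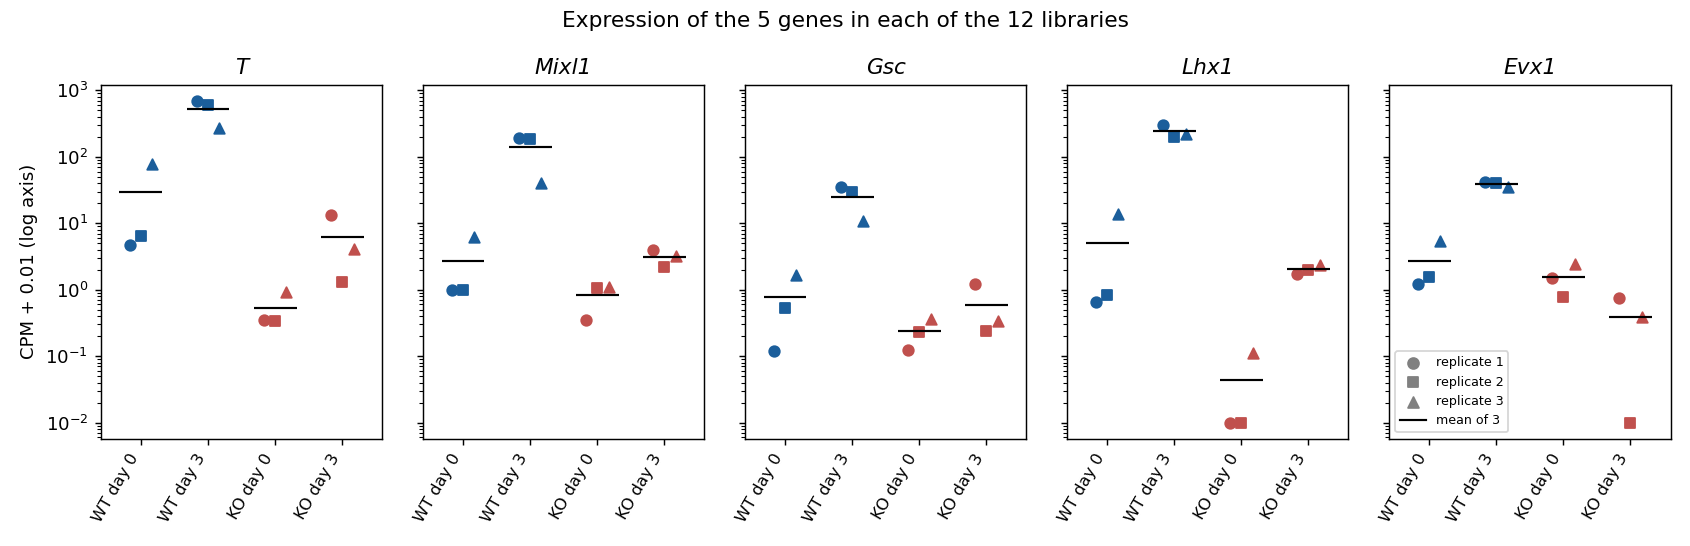
CPM plus 0.01 on a log axis for each of the 5 genes in the 12 libraries, with WT in blue, KO in red, a marker shape per replicate number and a line at the mean of 3. In each panel the 3 WT day 3 values lie above the other 9, and WT day 0 replicate 3 is the highest of the 6 day 0 values.

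WT replicate 3 deviated in opposite directions at the 2 days. At day 0 its CPM exceeded the mean of replicates 1 and 2 by 14.0-fold for *T*, 18.7-fold for *Lhx1*, 6.32-fold for *Mixl1*, 5.19-fold for *Gsc* and 3.93-fold for *Evx1*. Over the 15628 genes with a value, 0.88% had a ratio of 3 or more in that library, and the median ratio was 0.996. *Eomes* was not among them, with 63.8, 31.2 and 59.1 CPM in replicates 1, 2 and 3. Of the streak ligands, *Wnt3* was 4.37-fold and *Fgf8* 6.44-fold above the other replicates, and the ratio was 1.62 for *Wnt3a* and for *Bmp4* and 1.04 for *Nodal*. Summed primed epiblast markers, 6 genes, were also highest in this library, at 930.8 CPM against 583.1 and 700.4, and their part in the deviation was not tested. At day 3 the same number gave 0.413 of the mean of the others for *T*, 0.211 for *Mixl1* and 0.334 for *Gsc*, where 2.28% of 15588 genes had a ratio of 0.5 or less, but 0.892 for *Lhx1* and 0.871 for *Evx1*. *Eomes* stood at 0.549. That library was the one with 672.2 CPM of extraembryonic endoderm markers, whose part was not tested. KO replicate 3 was the highest KO library at day 0 for all 5 genes, but on few counts. It had 2.76-fold the mean of the other KO replicates for *T*, 2.15-fold for *Gsc*, 2.10-fold for *Evx1* and 1.55-fold for *Mixl1*. *Mixl1* had 21 counts there against 19 in replicate 2, and *Gsc* 7 against 4. It was the only KO library of that day with a count of *Lhx1*, at 2. The median ratio over 15592 genes was 0.988. How many of all genes were highest in that library was not counted, so nothing is read from this order.

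**Figure D2:**
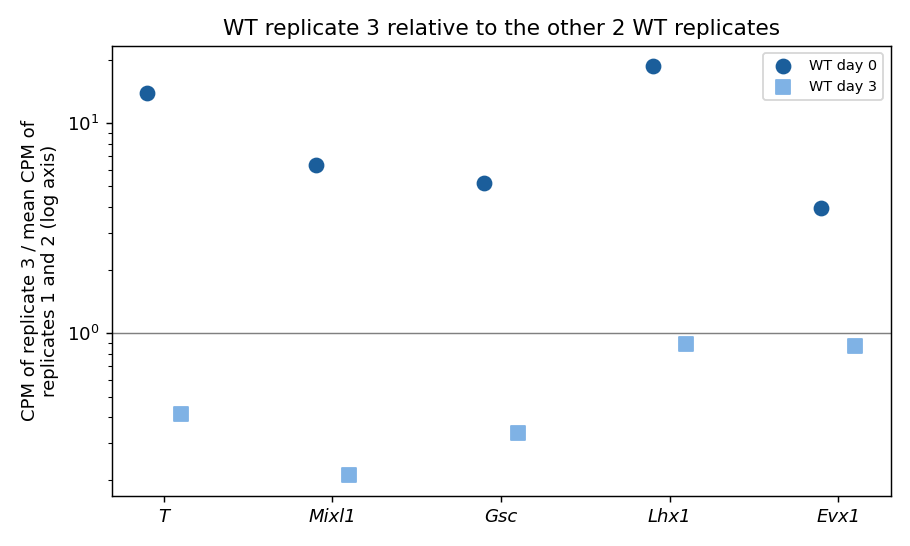
Ratio of the CPM of WT replicate 3 to the mean CPM of WT replicates 1 and 2, on a log axis, for each gene at day 0 (dark circles) and day 3 (light squares), with a line at 1. All 5 day 0 ratios are between 3.93 and 18.7, whereas the day 3 ratios are 0.211 to 0.413 for *T*, *Mixl1* and *Gsc* and near 0.9 for *Lhx1* (0.892) and *Evx1* (0.871).

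KO and WT cells were compared at day 3 to ask how the genes stood in embryoid bodies without *Meteor*. All 5 genes were lower in KO, while 16.7% of all tested genes were called lower (edgeR's quasi-likelihood test). In none of the 5 did the 3 KO values overlap the 3 WT values. The share of all genes without such overlap was not counted, so nothing is read from that count. *T* had 13.5, 1.31 and 4.12 CPM in KO replicates 1, 2 and 3 against 269.5 to 692.5 CPM in WT. The highest KO value was far below the lowest WT value, although the KO values were themselves wide apart, and the means were 6.31 ± 6.38 and 525 ± 225 CPM (SD, n = 3). The log2 fold change was -6.71 (SE 1.13, adjusted p = 0.002 in edgeR). *Evx1* had 0.75, 0 and 0.375 CPM in KO against 35.7 to 41.6 CPM in WT. In KO replicate 2 no read was counted on *Evx1*, which at this depth allows up to 0.172 CPM. With 24 counts over the 3 KO libraries against 2482 in WT, its log2 fold change was -6.81 (SE 0.67, adjusted p = 0.000143 in edgeR).

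*Mixl1* had 3.90, 2.22 and 3.21 CPM in KO at day 3 against 39.7 to 191 CPM in WT, 44.6-fold less on average, with a log2 fold change of -5.50 (SE 0.80, adjusted p = 0.000964 in edgeR). *Gsc* had 1.2, 0.228 and 0.333 CPM against 10.9 to 35.5 CPM, with a log2 fold change of -5.43 (SE 0.80, adjusted p = 0.00097 in edgeR). KO replicate 1 was the highest KO library for *T*, *Mixl1*, *Gsc* and *Evx1*. *Lhx1* had 1.70, 1.99 and 2.37 CPM in KO against 199.5 to 304.3 CPM in WT. It had the narrowest KO values relative to their mean and the largest decrease, with a log2 fold change of -7.10 (SE 0.79, adjusted p = 0.000247 in edgeR). All 5 ranked among the 75 lowest log2 fold changes of the 15673 tested genes, between position 20 for *Lhx1* and position 75 for *Gsc*.

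*Eomes*, the gene next to the deleted enhancer, fell less than any of the 5 on the log2 scale. It had 54.7, 144.3 and 128.6 CPM in KO and 471, 480 and 261 CPM in WT at day 3, a log2 fold change of -1.87 (SE 0.40, adjusted p = 0.00646 in edgeR). *T* was lowest in KO replicate 2 and highest in KO replicate 1, whereas *Eomes* was highest in KO replicate 2 and lowest in KO replicate 1. Beside these differences, neuroectoderm markers (10 genes) had 5 members higher and 1 lower in KO, and pluripotency markers (12 genes) had 5 higher and 2 lower. Over all tested genes 14.3% were called higher and 16.7% lower. With the block within each day the marker counts were 7 and 1, and 6 and 3. *Neurog3* and *Nkx6-3* are in the neuroectoderm list and were among its higher genes. The study singled each out from these same libraries as the most upregulated protein-coding gene of a day. The neuroectoderm count is thus partly picked from the data and is not read as a shift. The summed levels were 117.7 to 157.6 CPM in KO and 119.6 to 198.4 CPM in WT for neuroectoderm markers, and 1265 to 1321 and 696.3 to 1215 CPM for pluripotency markers. Their part in the result was not tested. The decrease of the 5 genes did not rest on WT replicate 3, since without the WT libraries numbered 3 of both days the log2 fold changes were between -5.72 for *Gsc* and -7.11 for *Lhx1*.

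**Figure D3:**
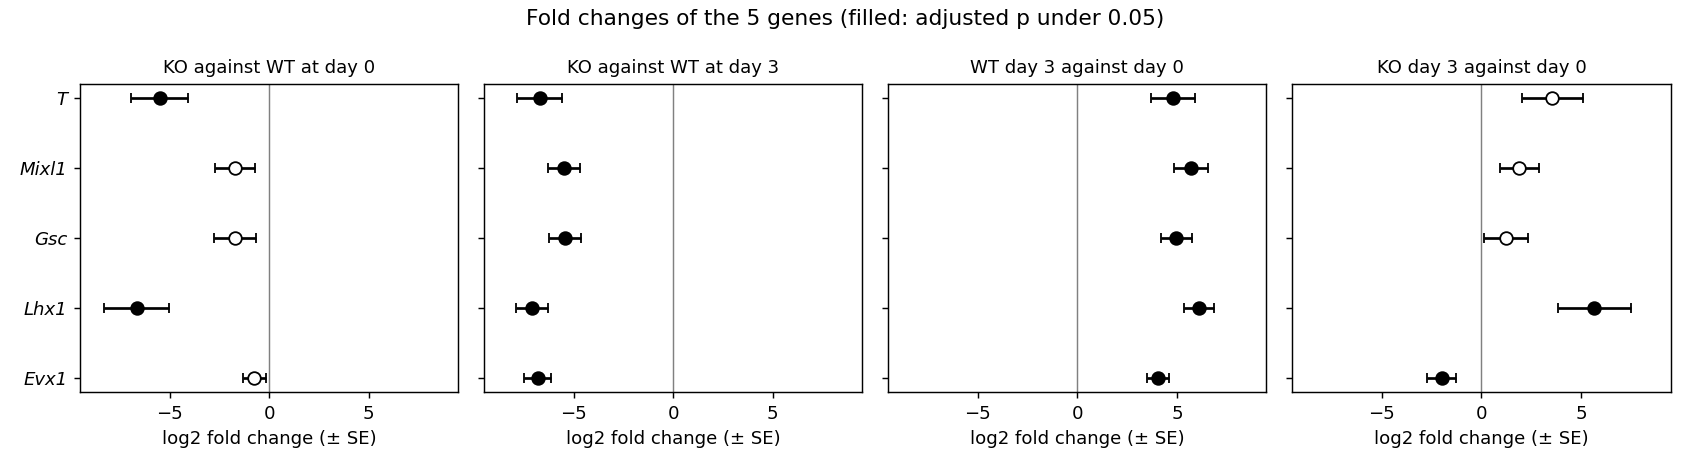
Log2 fold changes with their SE for the 5 genes in 4 comparisons, with filled points where the adjusted p was below 0.05. KO against WT is negative and filled for 5 of 5 genes at day 3 and for *T* and *Lhx1* at day 0, and day 3 against day 0 is positive and filled for 5 of 5 genes in WT, but in KO filled only for *Lhx1* (positive) and *Evx1* (negative). The fitted values of *Lhx1* that use KO day 0 rest on 2 counts there.

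KO and WT were then compared at day 0, before differentiation. 2 of the 5 genes, *T* and *Lhx1*, were lower in KO, where 10.9% of all tested genes were called lower (edgeR's quasi-likelihood test). *Lhx1* was named by the study, from these same libraries, as the most downregulated protein-coding gene of day 0. The count of 2 is thus partly picked from the data and is not set against that share. *T* had 0.336, 0.331 and 0.919 CPM in KO, from 6, 6 and 18 counts, against 4.64, 6.42 and 77.4 CPM in WT. No KO value reached the lowest WT value, and the log2 fold change was -5.49 (SE 1.43, adjusted p = 0.0234 in edgeR). *Lhx1* had 0, 0 and 2 counts in KO against 12, 16 and 263 in WT. The 2 libraries without a count allow up to 0.159 and 0.162 CPM, so *Lhx1* was not detectable there at this depth. The ratio of summed CPM was 143 in favour of WT, with a 95% exact counting interval of 39.3 to 1190, and the test gave an adjusted p of 0.0171 in edgeR.

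The other 3 genes overlapped between the genotypes at day 0. *Mixl1* had 0.336, 1.05 and 1.07 CPM in KO against 0.983, 0.992 and 6.24 CPM in WT (log2 fold change -1.70, SE 1.01, adjusted p = 0.271 in edgeR). *Gsc* had 0.112, 0.221 and 0.358 CPM in KO against 0.109, 0.522 and 1.64 CPM in WT (log2 fold change -1.71, SE 1.06, adjusted p = 0.294 in edgeR). When KO and WT libraries of the same day and number were paired by a block, *Gsc* passed at -1.64 (adjusted p = 0.0451 in edgeR). *Evx1* had 1.51, 0.772 and 2.4 CPM in KO against 1.2, 1.57 and 5.44 CPM in WT (log2 fold change -0.75, SE 0.58, adjusted p = 0.405 in edgeR). All 5 differences shrank without WT replicate 3 of day 0. *Lhx1* then stayed lower, at -4.18 (adjusted p = 0.012 in edgeR), *T* no longer passed, at -3.13 (adjusted p = 0.0639), and *Gsc*, *Mixl1* and *Evx1* were at -0.10, 0.06 and 0.03. *T* also lost its call without KO replicate 1, 2 or 3 of day 0, with an adjusted p of 0.0718, 0.0702 and 0.108, as did *Lhx1* without KO replicate 2 or 3, at 0.0562 and 0.122 in edgeR.

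*Eomes* differed little between the genotypes at day 0, with a log2 fold change of 0.12 (SE 0.39, adjusted p = 0.867 in edgeR), from 66.1, 49.3 and 52 CPM in KO and 31.2 to 63.8 CPM in WT. Of the primed epiblast markers all 6 were lower in KO at day 0, with a median log2 fold change of -2.32. Their summed levels were 290.8 to 396.1 CPM in KO against 583.1 to 930.8 CPM in WT. Over all tested genes 10.9% were called lower in KO at day 0. Summed pluripotency markers were 5235 to 5397 CPM in KO and 3881 to 4413 CPM in WT, with 3 of 12 genes higher and 2 lower, where 9.56% of all tested genes were called higher. Neuroectoderm markers had 5 of 10 genes lower and 1 higher, with summed levels of 89.2 to 119.2 CPM in KO and 143.6 to 245.1 CPM in WT. The gene that was higher was *Nkx6-3*, itself singled out from these libraries, so nothing is read from it. With the block within each day 5 neuroectoderm markers were lower and 4 higher, and 5 pluripotency markers were higher. The part of these markers in the difference was not tested.

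**Figure D4:**
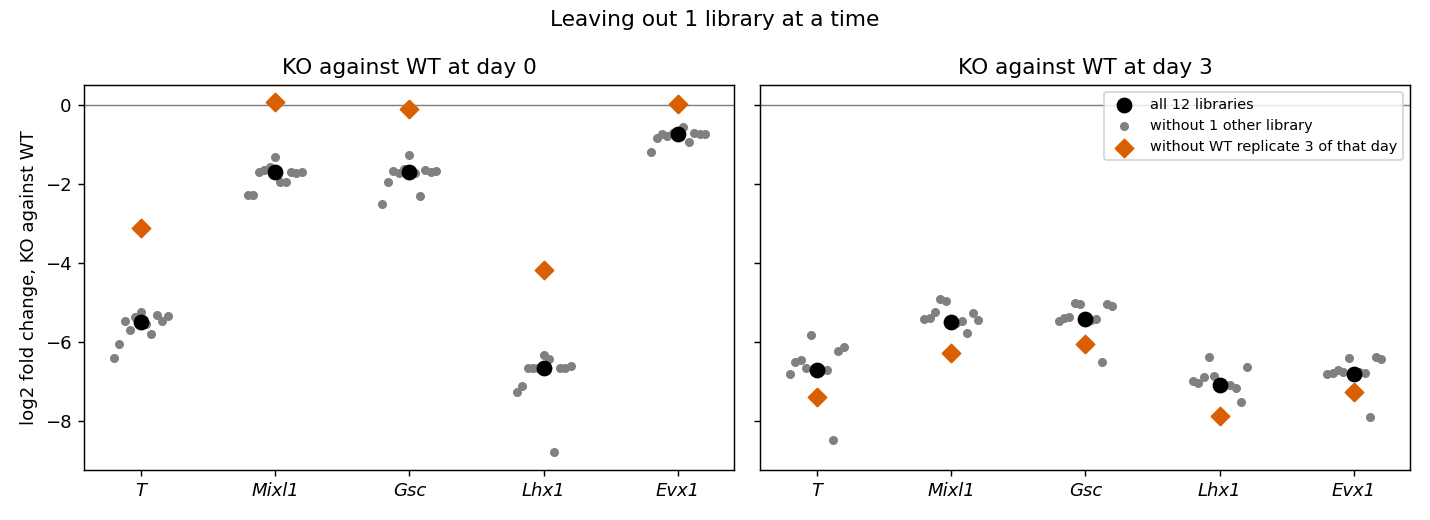
Log2 fold change of KO against WT at day 0 (left) and day 3 (right) for the 5 genes, with all 12 libraries (black), without WT replicate 3 of that day (orange) and without each other library (grey). At day 0 leaving out WT replicate 3 moves *T* from -5.49 to -3.13 and *Mixl1* and *Evx1* to 0.06 and 0.03, whereas at day 3 every value stays between -4.92 and -8.49.

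In KO cells the days were compared to follow the same course without *Meteor*. *Lhx1* was the 1 gene of the 5 called higher at day 3, where 29.4% of all tested genes were called higher, and *Evx1* was the 1 called lower, where 27.2% were (edgeR's quasi-likelihood test). *Lhx1* went from 0, 0 and 0.102 CPM to 1.70, 1.99 and 2.37 CPM, a ratio of summed CPM of 56.8 with a 95% exact counting interval of 15.4 to 474 (adjusted p = 0.0228 in edgeR). Its highest KO value at day 3 was still far under the 199.5 CPM of the lowest WT library. *Evx1* went from 1.51, 0.772 and 2.4 CPM to 0.75, 0 and 0.375 CPM. In CPM the groups did not overlap, but only by 0.772 against 0.75 CPM, from 14 and 15 counts, so the raw counts did overlap. The log2 fold change was -2.0 (SE 0.73, adjusted p = 0.0389 in edgeR), opposite to the change in WT.

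*T* had 0.336, 0.331 and 0.919 CPM at day 0 and 13.5, 1.31 and 4.12 CPM at day 3 in KO. Each day 3 value was above each day 0 value, but with a log2 fold change of 3.57 (SE 1.55) the adjusted p was 0.0719 in edgeR. *Mixl1* gave 1.91 (SE 0.99, adjusted p = 0.123), also without overlap of the groups, and *Gsc*, whose groups overlapped, gave 1.25 (SE 1.10, adjusted p = 0.354 in edgeR). These calls were fragile. WT libraries enter this comparison through the shared estimate of spread and through the replicate block common to the 4 groups. Without WT replicate 3 of day 0 *T* and *Mixl1* passed with adjusted p of 0.00778 and 0.0341 in edgeR. Without WT replicate 3 of day 3 they passed with 0.0289 and 0.0158. *T* also passed without WT replicate 1 of day 0, at 0.0483. *Lhx1* lost its call without KO replicate 1, 2 or 3 of day 0 or KO replicate 2 of day 3, with adjusted p of 0.0504 to 0.107. *Evx1* lost its call without WT replicate 2 of day 0, KO replicates 1, 2 or 3 of day 0, or KO replicates 2 or 3 of day 3, with adjusted p of 0.0515 to 0.162.

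The change from day 0 to day 3 was compared between the genotypes with an interaction term. It was smaller in KO for *Evx1* alone among the 5, with a difference of log2 fold changes of -6.06 (SE 0.89, adjusted p = 0.00253 in edgeR), where 7.34% of all tested genes had a lower response in KO at this threshold. *Mixl1* (-3.79, SE 1.39, adjusted p = 0.0934) and *Gsc* (-3.72, SE 1.49, adjusted p = 0.12) did not pass, but passed with the block within each day, at -3.56 (adjusted p = 0.0231) and -3.76 (adjusted p = 0.00657 in edgeR). Without WT replicate 3 of day 0 *Mixl1* and *Gsc* passed as well, at -5.31 (adjusted p = 0.0156) and -5.25 (adjusted p = 0.0295), and *Mixl1* passed without WT replicate 3 of day 3, at -4.72 (adjusted p = 0.00787). *T* had a difference of -1.22 (SE 2.15, adjusted p = 0.751), and that of *Lhx1* was -0.45 (SE 7.5, adjusted p = 0.98 in edgeR). The value of *Lhx1* rests on 2 counts in KO at day 0, so its size is not read. For these 2 genes KO was lower than WT at both days, and a p above the threshold does not show that the responses were equal. The 5 comparisons share their samples, so their values are not independent of each other.

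Levels were compared between genes per kb of exon. In WT at day 3 *T* was highest, at 227 ± 97.1 CPM per kb (SD, n = 3), without overlap with the next gene. *Mixl1* (60.4 ± 37.4) and *Lhx1* (59.6 ± 13.4 CPM per kb) followed and overlapped each other, and *Gsc* (19.9 ± 10.1) and *Evx1* (13.6 ± 1.08 CPM per kb) came last and also overlapped. *T* made up 59.6% of the summed level of the 5 genes. In WT at day 0 *T* had the highest mean, 12.7 ± 17.9 CPM per kb, but every gene overlapped its neighbour in the order. In KO at day 0 *Evx1* came first, at 0.543 ± 0.284 CPM per kb, ahead of *Mixl1* (0.357), *T* (0.228) and *Gsc* (0.181), again with overlap between neighbours, and *Lhx1* was last without overlap, at 0.00836 CPM per kb. In KO at day 3 *T* (2.72 ± 2.76) and *Mixl1* (1.35 ± 0.368 CPM per kb) overlapped at the top, and *Lhx1* (0.496), *Gsc* (0.463) and *Evx1* (0.13 CPM per kb) followed. Neighbours in this order overlapped except *Mixl1* and *Lhx1*.

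Other genes of the streak were described from lists chosen by function. A list of 16 genes held the signals that act upstream (Wnt, Nodal, BMP and FGF ligands and their effectors). Of these, 6 were lower, 3 higher and 7 did not pass between KO and WT at day 3, with a median log2 fold change of -0.40. Over all tested genes 16.7% were called lower and 14.3% higher, so nothing is read from the 3 that were higher. With the block within each day 9 were lower, and without WT replicate 3 of day 3 8 were. The block within each day called 3817 of all 15673 genes lower, against 2611 with the block by number alone. *Wnt3*, the ligand needed to form the streak, was 2.38 ± 0.876 CPM in KO and 62.4 ± 12.7 CPM in WT (SD, n = 3), at -4.80 (adjusted p = 0.000263 in edgeR). *Fgf8*, needed for cells to leave the streak, was at -4.42 (adjusted p = 0.0037), and *Wnt8a* at -4.07 (adjusted p = 0.00324 in edgeR). *Wnt3a* had 1 count in KO, a ratio of summed CPM of 181 with a 95% exact counting interval of 32.1 to 7200. *Nodal* (-0.37, adjusted p = 0.189) and *Bmp4* (-1.68, adjusted p = 0.0559) did not pass, and *Bmp4* had 4.34, 7.89 and 55.1 CPM in WT replicates 1, 2 and 3. *Bmp4* passed with the block within each day, at -1.60 (adjusted p = 0.0371), and was at -0.44 (adjusted p = 0.234) without WT replicate 3 of day 3, where *Nodal* passed at -0.57 (adjusted p = 0.0442 in edgeR). At day 0 *Bmp4* was higher in KO, at 2.48 (adjusted p = 0.0107), and *Wnt3* (-3.59, adjusted p = 0.00544) and *Fgf8* (-4.81, adjusted p = 0.0202 in edgeR) were lower. Without WT replicate 3 of day 0 *Bmp4* (2.25, adjusted p = 0.0579) and *Fgf8* (-3.13, adjusted p = 0.0531 in edgeR) no longer passed.

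Of 15 other transcription factors of the streak and nascent mesoderm, 15 were lower in KO at day 3, with a median log2 fold change of -4.39. Over all tested genes 16.7% were called lower in KO at day 3. In WT 13 of the 15 were higher and 1 lower at day 3 than at day 0. Of all tested genes 30.7% were called higher and 25.5% lower there. Without WT replicate 3 of day 3, 14 were lower in KO, since *Cdx4* no longer passed, at -1.30 (adjusted p = 0.281 in edgeR). *Mesp1*, a factor of early cardiac mesoderm, was at -8.29 (adjusted p = 0.000247) and *Sp5*, a Wnt target, at -7.00 (adjusted p = 0.000302 in edgeR). The study named *Mesp1*, from these same libraries, as the most downregulated protein-coding gene of day 3. The count of this list is thus partly picked from the data. *Hand1* was at -8.25 (adjusted p = 0.0036 in edgeR), but its WT mean came from replicate 3, with 105 CPM against 1.68 and 1.25, and without that library it was at -4.70 (adjusted p = 0.000344 in edgeR). *Msgn1*, a factor of presomitic mesoderm, had no count in KO and was at least 72.1-fold lower, against a floor of 3 counts over the group. The median of the list was the same with *Msgn1* at that bound. Of its 222 counts in WT at day 3, 103 were left without replicate 3, and the bound was then 50.1-fold. At day 0, 4 of the 15 were lower in KO and none higher, while the median was -1.11, and 2 were lower without WT replicate 3 of day 0. Over all tested genes 10.9% were called lower at day 0. In KO between the days 1 of the 15 rose and 4 fell. Over all tested genes 29.4% rose and 27.2% fell, so nothing is read from the 4 that fell.

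Of 16 genes of the node and anterior mesendoderm, the region in which *Gsc* and *Lhx1* act, 11 were lower and 1 higher in KO at day 3. The median log2 fold change was -4.39. Over all tested genes 16.7% were called lower and 14.3% higher, so nothing is read from the count of 1 higher. *Cer1*, a secreted inhibitor of Nodal and BMP, was at -7.53 (adjusted p = 7.41e-07), and *Dkk1*, a secreted Wnt inhibitor, at -6.65 (adjusted p = 9.73e-06 in edgeR). *Shh* had 1.54, 0.915 and 11.6 CPM in WT replicates 1, 2 and 3 and no count in KO, at least 96.2-fold lower by the same floor with all WT libraries and at least 25.3-fold lower without WT replicate 3. *Noto* had 1 count in KO, a ratio of 132 (95% exact counting interval 23.2 to 5230). *Lefty1*, a Nodal inhibitor that is also expressed in ESCs, was the 1 gene that was higher, at 1.74 (adjusted p = 0.000919 in edgeR), and with the block within each day 2 were higher.

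Relatives and partners of the 5 factors were followed too. Of 12 tested T-box relatives 4 were lower in KO at day 3 and none higher, namely *Tbx20* (-3.09), *Tbx6* (-2.99), *Eomes* (-1.87) and *Tbr1* (-1.62), and *Tbr1* had means under 1 CPM in both groups, while *Tbx20* had 1.4, 2.94 and 56.9 CPM in WT replicates 1, 2 and 3. Without WT replicate 3 of day 3 *Tbx20* was at -1.18 (adjusted p = 0.0358) and *Tbr1* no longer passed (adjusted p = 0.12), and without the WT libraries numbered 3 of both days *Tbx20* did not pass either (-1.23, adjusted p = 0.0575 in edgeR). With the block within each day 6 T-box relatives were lower and 1 higher, 2 LIM homeobox relatives were lower, and 1 of the paired-like and Evx relatives was lower and 2 were higher. That block called 3817 of all 15673 genes lower and 3530 higher, against 2611 and 2235 with the block by number alone. More calls in a list are therefore not read as a larger effect. Of 6 tested LIM homeobox relatives of *Lhx1*, *Isl1* was lower (-4.14, adjusted p = 0.00397, with 0.7, 0.963 and 15.7 CPM in WT replicates 1, 2 and 3 and -2.35 without the last, adjusted p = 0.00448), and of 6 tested paired-like and Evx relatives, *Otx1* was lower (-1.64, adjusted p = 0.00958 in edgeR). Of 13 cofactors of LIM and homeodomain proteins, 2 were lower, the LIM-only genes *Lmo1* (-3.90) and *Lmo2* (-2.68), and 3 were higher, with *Tle4* (0.65) and *Ssbp3* (0.36) the largest. As shares these are 15.4% lower and 23.1% higher of the cofactors and 16.7% lower of the LIM homeobox and of the paired-like and Evx relatives, against 16.7% lower and 14.3% higher over all tested genes, so nothing is read from these counts. *Ldb1*, the partner that Lhx1 binds through its LIM domains, was at 0.27 (adjusted p = 0.0499 in edgeR), and did not pass without WT replicate 3 of day 3, at 0.24 (adjusted p = 0.125).

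Genes beside the 5 factors were compared to see whether they moved as well. *Evx1os*, antisense to *Evx1*, had 20.3, 16.5 and 16.5 CPM in WT and 0.35, 0.0569 and 0.208 CPM in KO at day 3, a log2 fold change of -6.50 (SE 0.76, adjusted p = 0.00033 in edgeR). The strand setting of the counting is not stated, so reads from the exonic overlap of *Evx1* and *Evx1os* may not have been told apart. *Lhx1os*, a divergent lncRNA that starts 0.1 kb from *Lhx1*, had 3.17, 2.26 and 3.62 CPM in WT and at most 0.125 CPM in KO, at -4.94 (SE 0.63, adjusted p = 0.001 in edgeR). Protein-coding neighbours moved in both directions or did not pass. *Pde10a*, 82.9 kb from *T*, was lower, at -2.54 (adjusted p = 0.00167), while *Lin9*, 2.3 kb from *Mixl1*, was higher, at 0.70 at day 3 (adjusted p = 0.000376) and 0.60 at day 0 (adjusted p = 0.00131 in edgeR). *Mrm1*, 287.5 kb from *Lhx1*, was lower, at -0.57 at day 3 (adjusted p = 0.0179) and -0.54 at day 0 (adjusted p = 0.0321), and at day 0 it did not pass without WT replicate 3 of that day (adjusted p = 0.142 in edgeR). *Hoxa13*, 52.6 kb from *Evx1*, was called lower at day 3 (adjusted p = 0.0161 in edgeR) with no count in KO and 1, 1 and 24 counts in WT replicates 1, 2 and 3, and without that replicate 3 it did not pass the filter on low counts. *Acbd3*, 29 kb from *Mixl1*, was higher in KO at day 0 (0.41, adjusted p = 0.00548) and at 0.08 at day 3 (adjusted p = 0.482 in edgeR). *Aatf*, 4.8 kb from *Lhx1* (-0.13, adjusted p = 0.481), *Dicer1*, 214.4 kb from *Gsc* (0.02, adjusted p = 0.895), and *Hibadh*, 227.8 kb from *Evx1* (-0.12, adjusted p = 0.493 in edgeR), did not pass.

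The genes most like the 5 were found by correlating log2(CPM + 1) over the 12 samples with the mean of the standardised values of the 5. The samples fall into 4 groups, and the high WT day 3 values set much of each correlation, so it is given as a description. *Rtl8c* came first (Pearson r = 0.99), followed by *Evx1os* (0.989), *Wnt5b* (0.986), *Aplnr* (0.986) and *Frzb* (0.985). *Aplnr*, the receptor of apelin and Elabela, had 114 CPM in WT at day 3, 1.76 in WT at day 0, 0.0354 in KO at day 0 and 0.593 in KO at day 3. *Ankef1*, *Wnt9b*, *Wnt3*, *Chst7* and *Grrp1* followed at 0.98 to 0.983. By single gene, *T* was most like *Fgf8* (0.991), *Mixl1* like *Fst* (0.994), *Gsc* like *Rtl8c* (0.996), *Lhx1* like *Aplnr* (0.99) and *Evx1* like *Itga8* (0.979). *Mixl1* and *Gsc* were in each other's first 3, at 0.988, and no other pair of the 5 was.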

How the data were processed

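The deposited values are gene counts of 12 RNA-Seq libraries, 1 count table per sample, not normalized. Per the labels the authors prepared TruSeq stranded libraries with polyA selection. Their notes name Cutadapt 1.3 for trimming, STAR 2.4.2a for alignment to GRCm38 and HTSeq 0.6.1 for counting on Ensembl annotation, and the strand setting is not given in the sources used here. Reads aligned to several places (36.52% to 44.09%) are not in the gene counts. The 5 tally entries that name no gene were left out.

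Genes above 1 CPM in at least 1 sample were tested in 1 quasi-likelihood fit (edgeR 4.0.16, R 4.3.3) with TMM scaling, all 12 samples, 4 groups and the replicate number as a block, since the methods of the study add a batch factor. Benjamini-Hochberg adjustment covered 15673 genes, and genes were called below 0.05. SE is the log2 fold change divided by the root of F. CPM are TMM-scaled. Replicate numbers come from the labels. Over 6 pairs of KO and WT libraries of the same day and number, deviations from the group means correlated at 0.333 to 0.695, and at -0.231 to 0.067 between the days. The mean of -0.262 over 12 pairs with different numbers is no separate contrast, since deviations cancel within a group. By the same-number values the numbers pair libraries within a day. The within-day block is given where it changes a call of the 5 genes or of a named list gene, or a list's count by 1.5 times or more.

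The 5 genes and all gene lists were chosen with earlier results of these data known. Named beyond them are locus transcripts, *Eomes*, *Upf3b*, neighbouring genes, the streak ligands, the genes most alike, and up to 4 genes per functional list with the largest log2 fold change among those past the threshold at day 3. Intervals and floors cover counting error only. Alternatives were no block, the within-day block, limma-voom (limma 3.58.1), DESeq2 1.42.0, RLE normalization, other filters, a fold change minimum, 6 samples only, and each library left out. The scripts were tested on simulated data. Promoters came from RefSeq (4 of 5 genes matched), and annotation from GENCODE M21.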

Additional observations from a re-analysis of the deposited data

Results flagged for a closer look

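The change of *Evx1* from day 0 to day 3 differed between the genotypes by the test of the difference itself, with -6.06 on the log2 scale for KO minus WT (SE 0.89, adjusted p = 0.00253 by the quasi-likelihood fit of edgeR, with 3 libraries a group). Each of the 3 WT libraries of day 3 was above each WT library of day 0, and each of the 3 KO libraries of day 3 was below each KO library of day 0. Over the fits that each left out 1 library the difference was -7.17 to -5.61, with adjusted p of 0.0017 to 0.0126 in edgeR. In KO it rests on 88 counts at day 0 and 24 at day 3. The order of the KO libraries holds in CPM only. Replicate 2 of day 0 had 14 counts (0.772 CPM) and replicate 1 of day 3 had 15 (0.75 CPM).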

How the results depend on the processing

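At day 3 all 5 genes were lower in KO, and in WT all 5 were higher at day 3, under every alternative that gave a value. Requiring 10 counts in every library gave none, since each of the 5 had a library with fewer. At day 0 the number of the 5 called lower in KO, 2, became 0 with limma-voom, 4 with only the 6 samples of that day and 1 without both WT libraries numbered 3, an alternative chosen after seeing the data, and was 0 to 2 with 1 library left out. The number called higher at day 3 in KO, 1, became 2 with DESeq2 and with no filter on low counts, 3 with 6 samples only, 3 without both WT libraries numbered 3, and 0 to 3 with 1 library left out, while the number called lower was 0 to 1. The number with a lower response in KO, 1, became 3 with the replicate block within each day, 3 with DESeq2, 2 with no filter, 3 without both WT libraries numbered 3, and 1 to 3 with 1 library left out. Signs turned without WT day 0 replicate 3 for *Evx1* (0.03, in a range of -1.19 to 0.03 over the libraries left out) and *Mixl1* (0.06, range -2.27 to 0.06) at day 0, and for the difference of responses of *Lhx1*, which was 0.03 with no replicate block, 0.11 with the block within each day, and 0.28, 0.08, 0.25 and 1.69 without WT day 0 replicate 1, WT day 0 replicate 2, WT day 3 replicate 1 or KO day 0 replicate 3 (range -2.70 to 1.69). The cause was not tested. Without the replicate block no call of the 5 genes changed, and the block within each day changed those of *Gsc* at day 0 and of *Gsc* and *Mixl1* for the difference of responses. Over all genes, 3201 were called at day 0, 4846 at day 3 and 2436 for the difference of responses, which became 5447, 7347 and 4889 with the block within each day. With 6 samples only it was 5356 at day 0, with the fold change minimum 1398, 2065 and 1494, and without both WT libraries numbered 3 it was 1684, 2754 and 1438. At the lowest it was 1717, 2907 and 1391 with 1 library left out. The WT comparison went from 8812 to 4304 and the KO comparison from 8864 to 4535 with the fold change minimum. Depth limits the day 0 values, where *Gsc* had 2 to 31 counts and *Lhx1* 0 to 2 in KO.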

Other observations

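Marker lists of other cell types moved in both directions between KO and WT at day 3 (edgeR's quasi-likelihood fit, all 12 libraries). Over all tested genes 14.3% were called higher in KO and 16.7% lower. The count of 2 of 12 extraembryonic endoderm markers below is near that share, so nothing is read from it. Of 6 primed epiblast markers 3 were higher in KO and none lower, with *Pou3f1*, a POU factor of the epiblast and neural lineage, which had 147 ± 24 CPM in KO against 33.3 ± 6.17 CPM in WT (SD, n = 3). Of 12 extraembryonic endoderm markers 2 were lower, *Gata6* at -4.62 (adjusted p = 4.69e-05) and *Gata4* at -3.98 (adjusted p = 0.00389 in edgeR). *Gata4* had 15.3, 12.2 and 101 CPM in WT replicates 1, 2 and 3, and without replicate 3 it was at -2.58 (adjusted p = 0.00214) and *Gata6* at -4.29 (adjusted p = 0.000121 in edgeR). Both genes are also expressed in mesendoderm. Of 11 tested fibroblast (feeder) markers 4 were lower and 3 higher, and without WT replicate 3 of day 3 2 were lower and 2 higher. With the block within each day 2 primed epiblast markers were lower and 4 higher, and 3 extraembryonic endoderm markers were lower and 1 higher. That block called 3817 of all 15673 genes lower and 3530 higher. From day 0 to day 3 all 6 primed epiblast markers rose in WT and in KO, with a median log2 change of 1.51 in WT and 4.80 in KO.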
